A study of Mus musculus with 6 samples.

Results

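The Wnt genes described here are 10 genes chosen by symbol from the 35275 genes of a count table of mouse kidney RNA. They are the ligands Wnt4, Wnt5a, Wnt7b and Wnt9b, the receptor Fzd1, the target gene Axin2, and the secreted antagonists Dkk2, Dkk3, Sfrp1 and Sfrp2. The RNA, selected for poly-A tails, came from kidneys of wild-type C57Bl/6 mice killed 28 days after ischaemia-reperfusion injury, in which the blood supply of the kidney is stopped and then restored. Ischaemia lasted 20 min in the mild group (3 libraries, numbered 7, 8 and 9) and 35 min in the severe group (3 libraries, numbered 13, 14 and 15). All mice carried the injury, and uninjured kidneys were not analysed here. The sources used here give neither age nor sex. The labels do not state that each library is a different mouse, so the p-values speak only of the spread between these 6 samples, which may be technical. The libraries held 15240491 to 17730967 gene counts, and 14883 genes, all 10 members among them, had enough counts for a test. The comparison asks how these genes differ between the shorter and the longer ischaemia in a model of the passage from acute kidney injury to chronic kidney disease.

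Wnt proteins are secreted, lipid-modified signals that bind a frizzled receptor and, in the canonical branch, the co-receptors Lrp5 and Lrp6. Binding stops the destruction complex of Axin, Apc and Gsk3 from removing beta-catenin, which then enters the nucleus and switches on targets together with TCF/LEF factors. Sfrp proteins carry a frizzled-like domain and bind Wnts outside the cell, and Dkk proteins act on the Lrp co-receptors, with Dkk3 as the divergent member of its family. In the developing kidney, Wnt9b from the ureteric bud induces nephrons, Wnt4 drives the mesenchyme to form epithelium, and Wnt7b from the collecting duct shapes the medulla. In the adult kidney the pathway is known to be switched on again after injury and in fibrosis.

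No member passed the threshold in the test across all genes, although all 10 had a positive log2 fold change of severe over mild kidneys. The count was 0 of 10 at an adjusted p under 0.05 (edgeR quasi-likelihood test, Benjamini-Hochberg adjustment over all tested genes), where 0.0134% of all genes passed. At an unadjusted p under 0.05, 6 of 10 members were higher and 0 lower, against 15.8% of all tested genes higher and 7.89% lower. These were Wnt4, Wnt5a, Fzd1, Axin2, Dkk2 and Dkk3. For 5 of 10 members every severe library lay above every mild library, as it did for 17.9% of all tested genes, and for 0 members every severe library lay below, as it did for 16.1% of all tested genes. The median log2 fold change of the 10 members was 0.54, and that of all tested genes was 0.000194. A positive fold change was seen for 50.1% of all tested genes. The members were chosen with earlier results of these data known, so these counts describe them and do not test them as a set. With DESeq2 as the tool, 5 of 10 members passed an adjusted p of 0.05 (Wnt4, Fzd1, Axin2, Dkk2 and Dkk3), where 7.19% of its genes passed as higher and 0.993% as lower. With limma-voom 0 members passed, and 0.0134% of all genes did. In edgeR with library totals in place of TMM 0 members and 0.00672% of genes passed. More cells of a type and more RNA per cell cannot be told apart in bulk kidney RNA, nor can fewer cells and less RNA per cell.

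**Figure D1:**
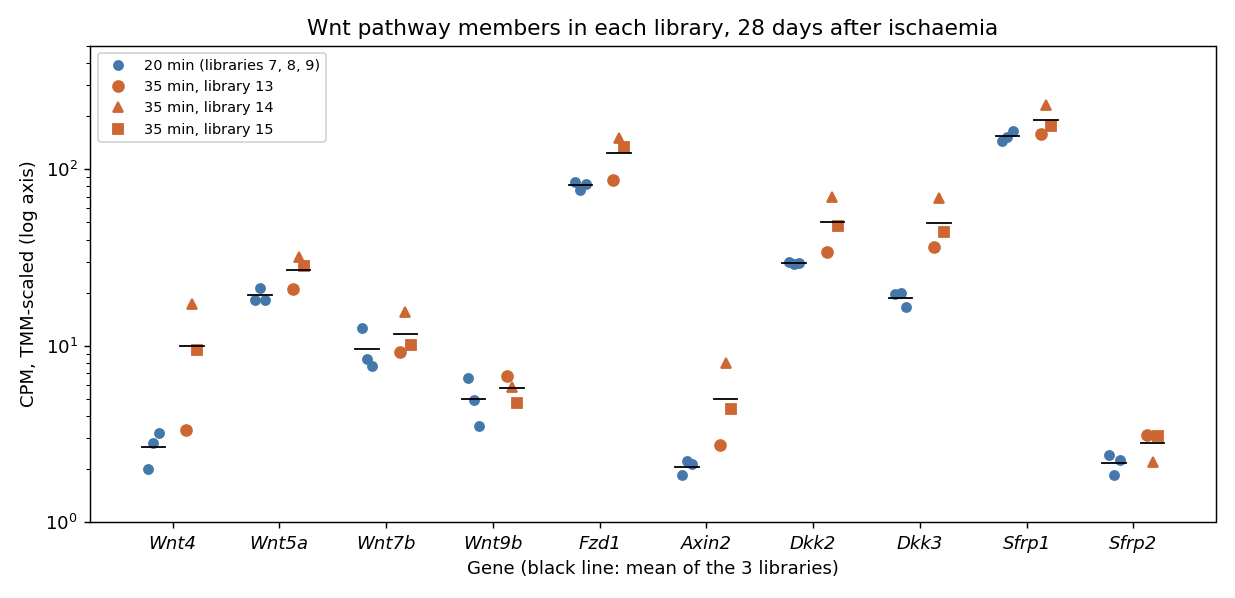
Levels of the 10 genes in each library, as CPM scaled by TMM on a log axis, with the mean of each group of 3 as a black line. Circles in blue are the 20 min libraries, and orange symbols are the 35 min libraries. Dkk3, Dkk2, Axin2, Fzd1 and Wnt4 have all 3 severe libraries above all 3 mild ones, and library 14 is the highest of the severe libraries for 8 of the 10 genes.

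Promoter windows from RefSeq (GRCm38.p6, which shares its coordinates with the mm10 build of the counts) were found for 6 of the 10 members: Wnt4, Wnt9b, Fzd1, Axin2, Dkk2 and Sfrp2. Each runs from 250 bases before to 50 bases after the start that RefSeq gives. That start equals the gene start in the count table for Axin2, Dkk2, Wnt9b and Sfrp2. For Wnt4 it lies 146 bases downstream of it, so that 104 bases of the window precede the gene of the count table and 196 lie inside it, and for Fzd1 the whole window lies upstream of that gene. The 4 windows shown compare a pair of ligands whose values part below, Wnt4 and Wnt9b, and set the target Axin2 beside the antagonist Dkk2. Capitals mark the TCF/LEF core CTTTG, the GC box GGGCGG and the TATA box TATAAA, each on either strand. In the Wnt4 window a pair of GC boxes overlap.
Wnt4, plus strand, chr4:137277385-137277684: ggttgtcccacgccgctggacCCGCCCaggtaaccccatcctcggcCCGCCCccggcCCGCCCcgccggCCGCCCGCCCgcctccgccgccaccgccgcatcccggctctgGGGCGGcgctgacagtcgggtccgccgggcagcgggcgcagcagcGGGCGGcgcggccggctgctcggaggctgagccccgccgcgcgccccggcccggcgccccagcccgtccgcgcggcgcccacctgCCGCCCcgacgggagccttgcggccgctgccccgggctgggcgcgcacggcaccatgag
Wnt9b, minus strand, chr11:103749772-103750071: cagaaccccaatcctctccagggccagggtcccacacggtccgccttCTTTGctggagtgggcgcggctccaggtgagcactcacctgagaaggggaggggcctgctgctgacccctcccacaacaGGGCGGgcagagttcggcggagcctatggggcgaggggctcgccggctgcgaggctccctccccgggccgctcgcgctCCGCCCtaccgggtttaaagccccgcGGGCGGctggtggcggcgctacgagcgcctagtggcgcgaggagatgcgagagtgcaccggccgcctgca
Axin2, plus strand, chr11:108920099-108920398: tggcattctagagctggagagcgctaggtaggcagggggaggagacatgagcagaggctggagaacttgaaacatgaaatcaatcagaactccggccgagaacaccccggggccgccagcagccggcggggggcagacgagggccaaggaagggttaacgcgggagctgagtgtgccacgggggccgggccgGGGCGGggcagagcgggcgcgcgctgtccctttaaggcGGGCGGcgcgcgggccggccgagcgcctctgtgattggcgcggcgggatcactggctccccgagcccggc
Dkk2, plus strand, chr3:132085042-132085341: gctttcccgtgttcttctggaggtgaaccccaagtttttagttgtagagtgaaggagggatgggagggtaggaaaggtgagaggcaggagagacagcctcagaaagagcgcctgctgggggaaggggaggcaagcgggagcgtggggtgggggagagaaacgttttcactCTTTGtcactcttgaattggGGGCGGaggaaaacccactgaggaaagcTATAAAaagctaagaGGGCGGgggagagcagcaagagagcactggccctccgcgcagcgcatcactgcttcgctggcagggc
The Wnt4 window was 84.3% G and C with 51 CpG pairs, and the median over all 32851 windows was 52.7% with 7 CpG pairs. Axin2 had 70.0% with 31 CpG pairs, Wnt9b 71.7% with 29, Sfrp2 66.0% with 22, Fzd1 54.0% with 16 and Dkk2 57.7% with 11. All 6 windows therefore held more CpG pairs than the median window. The core CTTTG was present in the windows of Wnt9b, Fzd1 and Dkk2 and in 53.9% of all windows, and the longer form CTTTGAT was in none of the 6 and in 3.73% of all. The GC box was present in Wnt4, Wnt9b, Axin2 and Dkk2 and in 35.7% of all windows. The TATA box was present in Dkk2, 32 bases before the start, in Fzd1, 202 bases before it, and in 13.6% of all windows. These matches describe the letters of the windows only.

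Among the ligands, Wnt4 differed most between the groups. Wnt4 (ENSMUSG00000036856, chromosome 4, 137277489 to 137299726, plus strand) stood at 1.997, 2.81 and 3.22 CPM (the count relative to the library total, scaled by TMM) in mild libraries 7, 8 and 9. The corresponding levels were 3.31, 17.3 and 9.46 CPM in severe libraries 13, 14 and 15. The groups did not overlap, but severe library 13 lay just above the highest mild library, while library 14 lay 6.47-fold above the mild mean. The means were 2.68 ± 0.624 and 10.03 ± 7.02 CPM (SD, n = 3 each). In edgeR the log2 fold change was 1.90 ± 0.54 (SE), with an adjusted p of 0.115. Without severe library 14 the log2 fold change of Wnt4 was 1.24, and without severe library 13 it was 2.33.

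Wnt5a, a ligand known mainly for signalling without beta-catenin, differed less. Wnt5a (ENSMUSG00000021994, chromosome 14, 28504750 to 28527447, plus strand) stood at 18.2, 21.4 and 18.2 CPM in the mild libraries and at 21.0, 32.0 and 28.2 CPM in severe libraries 13, 14 and 15. Library 13 lay inside the mild range, so the groups overlapped. The log2 fold change was 0.49 ± 0.16 (edgeR adjusted p = 0.141).

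The other ligands did not separate the groups. Wnt7b (ENSMUSG00000022382, chromosome 15, 85535439 to 85581821, minus strand) stood at 12.7, 8.43 and 7.68 CPM in mild libraries 7, 8 and 9 and at 9.18, 15.6 and 10.1 CPM in severe libraries 13, 14 and 15. Mild library 7 lay above severe libraries 13 and 15. Its log2 fold change of 0.28 ± 0.26 (edgeR adjusted p = 0.508) moved to 0.0116 when severe library 14 was left out and to 0.53 when mild library 7 was. Wnt9b (ENSMUSG00000018486, chromosome 11, 103727364 to 103749821, minus strand) stood at 6.54, 4.91 and 3.50 CPM in the mild libraries and at 6.74, 5.85 and 4.73 CPM in the severe ones. It was the member with the smallest log2 fold change, 0.21 ± 0.25 (edgeR adjusted p = 0.609), with 0.0230 when mild library 9 was left out and 0.46 when mild library 7 was. In mild library 7, where both ligands were highest among the mild libraries, urothelial markers summed to 26.0 CPM, against 8.37 and 11.5 CPM in mild libraries 8 and 9. The 8 urothelial markers summed to 13.4 to 19.8 CPM in severe libraries, 0 of the 7 tested had an unadjusted p under 0.05 and none was at 0 in every library. The 14 collecting duct markers summed to 996 CPM in library 7, to 889 to 996 CPM over the mild libraries and to 672 to 943 CPM over the severe ones, with 3 of 13 tested lower at an unadjusted p under 0.05. None of them was at 0 in every library. The 6 fat markers summed to 11.8 CPM in library 7, to 0.137 and 0.419 CPM in the other mild libraries and to 0.639 to 3.99 CPM in severe ones, with none at 0 in every library. The part of these markers in the Wnt7b and Wnt9b values was not tested.

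The receptor gene Fzd1 was higher in severe kidneys by a modest factor. Fzd1 (ENSMUSG00000044674, chromosome 5, 4753873 to 4758035, minus strand) stood at 84.7, 76.3 and 83.0 CPM in the mild libraries and at 86.6, 150.3 and 133 CPM in severe libraries 13, 14 and 15. The groups did not overlap, yet library 13 was only just above the highest mild library. The means were 81.3 ± 4.46 and 123 ± 33.0 CPM. In edgeR the log2 fold change was 0.60 ± 0.19 with an adjusted p of 0.130, and it was 0.43 without severe library 14.

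Axin2 encodes a scaffold of the destruction complex and is a widely used readout of beta-catenin signalling, because the pathway induces it as its own brake. Axin2 (ENSMUSG00000000142, chromosome 11, 108920349 to 108950783, plus strand) stood at 1.86, 2.21 and 2.13 CPM in the mild libraries and at 2.73, 7.98 and 4.36 CPM in severe libraries 13, 14 and 15. Every severe library lay above the mild ones, with library 14 highest and library 13 lowest. The means were 2.07 ± 0.184 and 5.02 ± 2.69 CPM, which is 2.43-fold. In edgeR the log2 fold change was 1.28 ± 0.39 with an adjusted p of 0.126. It was 0.77 without severe library 14 and 1.59 without severe library 13.

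Of the antagonists, Dkk3 had the smallest p of the 10 members. Dkk3 (ENSMUSG00000030772, chromosome 7, 112116019 to 112159057, minus strand), which encodes a secreted glycoprotein known from stressed tubule cells and stroma, stood at 19.6, 19.9 and 16.6 CPM in the mild libraries. Severe libraries 13, 14 and 15 held 36.5, 69.0 and 44.3 CPM. The lowest severe library lay far above the highest mild one: library 13 was 1.95-fold above the mild mean, whereas the other 9 members stood at 0.957-fold to 1.44-fold of theirs in that library. The means were 18.7 ± 1.84 and 49.9 ± 17.0 CPM, and the gene ranked 34 by p among all tested genes with an edgeR adjusted p of 0.0867. Without severe library 14 the log2 fold change was 1.11 ± 0.11 with an edgeR adjusted p of 0.00129, the only member to pass there, where 3.33% of all genes passed.

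Dkk2 (ENSMUSG00000028031, chromosome 3, 132085292 to 132180293, plus strand), which binds the Lrp co-receptors, stood at 29.7, 29.0 and 29.3 CPM in the mild libraries and at 33.9, 69.3 and 47.8 CPM in severe libraries 13, 14 and 15. Its mild libraries were almost identical, with a coefficient of variation of 1.35%, against 35.4% in the severe group. All severe libraries lay above them, and the log2 fold change was 0.78 ± 0.23 (edgeR adjusted p = 0.118), or 0.48 without severe library 14.

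The Sfrp genes overlapped between the groups. Sfrp1 (ENSMUSG00000031548, chromosome 8, 23411502 to 23449632, plus strand) stood at 145, 151 and 166 CPM in the mild libraries and at 159, 232 and 176 CPM in severe libraries 13, 14 and 15. In edgeR its log2 fold change was 0.30 ± 0.15 with an adjusted p of 0.254, and 0.12 without severe library 14. Sfrp2 (ENSMUSG00000027996, chromosome 3, 83766321 to 83774316, plus strand) stood at 2.41, 1.85 and 2.26 CPM in the mild libraries and at 3.14, 2.19 and 3.07 CPM in the severe ones. Here library 14, the highest for most members, was the lowest severe library and lay inside the mild range. The log2 fold change of Sfrp2 was 0.36 ± 0.24 (edgeR adjusted p = 0.350).

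**Figure D2:**
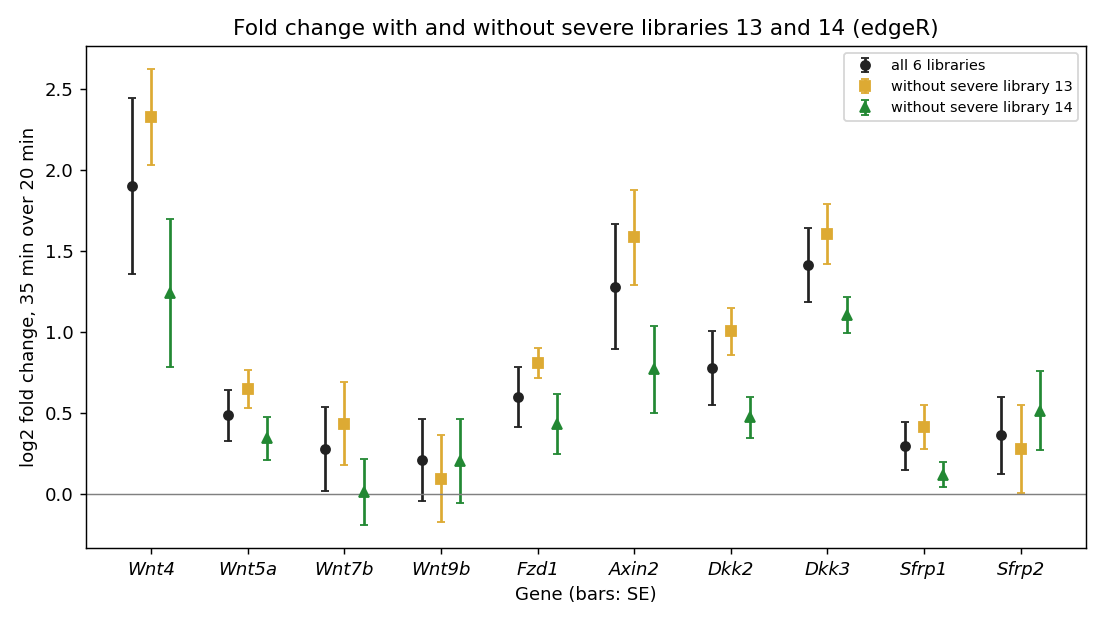
Log2 fold change of each gene between 35 min and 20 min of ischaemia with its SE, from edgeR with all 6 libraries (black circles), without severe library 13 (yellow squares) and without severe library 14 (green triangles). Dkk3 stands at 1.11 or above in all 3, and Wnt4 moves between 1.24 and 2.33.

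The severe libraries were not alike, and most members stood in a shared order across them. Library 14 was the highest of the 3 severe libraries for 8 of 10 members, and library 13 the lowest for 8 of 10. Library 14 was the highest for 41.5% of all tested genes, and for 67.9% of those with a positive fold change. Library 13 was the lowest for 37.8% of all tested genes, and for 62.7% of those with a positive fold change. All 6 members with an unadjusted p under 0.05 had library 13 below library 15 and library 15 below library 14, as did 75.8% of all genes that were higher at that p. The SD of log2 CPM was larger in the severe group for 9 of 10 members and for 73.2% of all tested genes. Without severe library 13, 6 of 10 members passed an adjusted p of 0.05 in edgeR (Wnt4, Wnt5a, Fzd1, Axin2, Dkk2 and Dkk3), where 21.5% of all genes did. Without severe library 14 it was Dkk3 alone. Without severe library 15, 0 members and 0.00664% of all genes passed, and with any mild library left out 0 members and 0% of genes did.

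The summed markers of stroma and macrophages stood in the same order, though not every marker did. The 15 fibroblast and myofibroblast markers summed to 646 to 806 CPM in mild libraries and to 1317, 4290 and 2228 CPM in severe libraries 13, 14 and 15. Of these 15, 14 were higher at an unadjusted p under 0.05, against 15.8% of all tested genes, and none was at 0. Against the mild mean the summed level stood at 0.85, 2.55 and 1.60 on the log2 scale in those libraries, where Dkk3 stood at 0.96, 1.88 and 1.24 and Axin2 at 0.40, 1.95 and 1.08. The 7 medullary stroma markers summed to 125 to 144 CPM in mild libraries and to 148, 521 and 291 CPM in severe libraries 13, 14 and 15, with 4 of 6 tested higher at an unadjusted p under 0.05 and none at 0 in every library. On that list Foxd1 went the other way, with every severe library below every mild one (log2 fold change -0.64 ± 0.29). Angptl7 overlapped between the groups and was lowest in severe library 14, at 6.24 CPM. Cnn1 was highest in severe library 15, at 2.95 CPM. The pericyte receptor Pdgfrb, on the fibroblast list, stood at 32.8 to 55.9 CPM in mild and at 82.0 to 148 CPM in severe libraries. The 11 macrophage markers summed to 326 to 393 CPM in mild and to 612 to 1195 CPM in severe libraries, with 11 of 11 higher at an unadjusted p under 0.05 and none at 0. The 13 proximal tubule markers, which define the tissue as kidney, summed to 37102 to 39323 CPM in mild and to 15703 to 32260 CPM in severe libraries. Of these 13, 5 were lower at an unadjusted p under 0.05, against 7.89% of all tested genes, and none was at 0. The 8 markers of the loop of Henle and distal tubule summed to 8140.5 to 8356 CPM in mild and to 4532 to 7554 CPM in severe libraries, with 1 of 8 lower at that p and none at 0. The part of these cell types in the members' values was not tested. Adrenal markers, which matter because the adrenal gland also expresses Wnt4, summed to 3.43 to 5.90 CPM, almost all of it Star and Mc2r. Mc2r stood at 0.0686 to 0.299 CPM in mild libraries and at 0.407, 2.53 and 0.614 CPM in severe libraries 13, 14 and 15. Star stood at 3.02 to 3.36 CPM over all libraries. The adrenal genes Cyp11b2, Cyp21a1 and Th were at 0 in every library, and Cyp11b1 and Cyp11a1 did not exceed 0.112 CPM. The part of the adrenal list in the Wnt4 values was not tested.

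**Figure D3:**
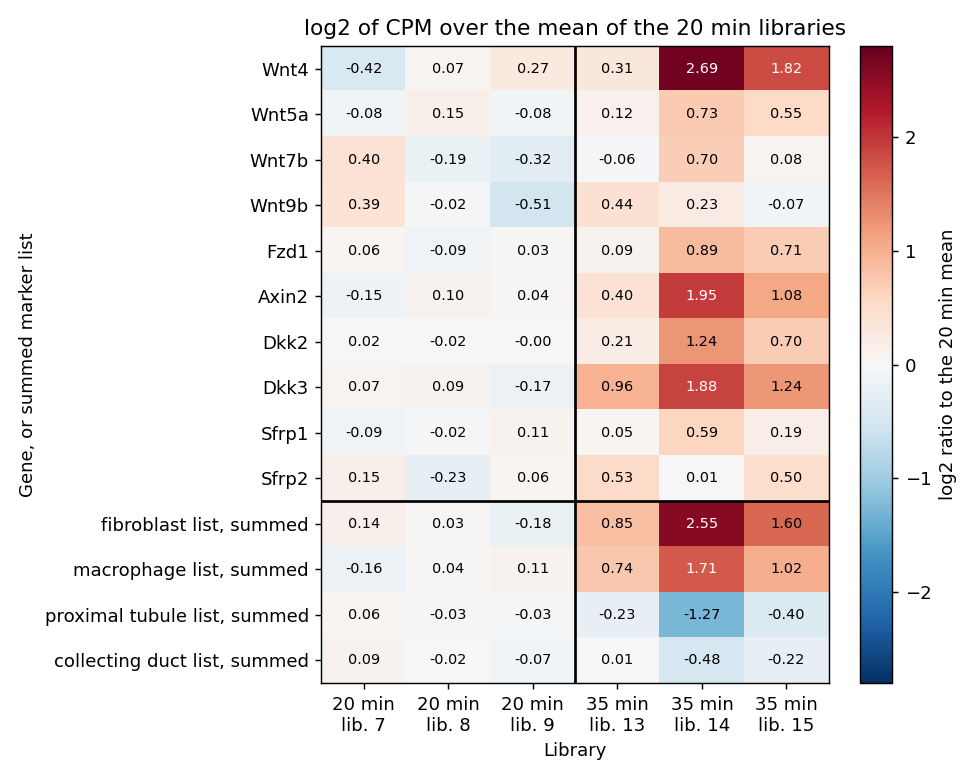
Log2 ratio of each gene's CPM to the mean of the 20 min libraries, by library, with the summed CPM of 4 marker lists below the line. Library 14 reaches 2.69 for Wnt4 and 1.95 for Axin2 where the fibroblast list stands at 2.55, and Wnt9b and Sfrp2 do not follow that order.

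Levels of different genes were compared per length, as CPM per kb of the union of exons in GENCODE M21. In mild kidneys the order ran from Sfrp1 (35.2 ± 2.44 CPM per kb, SD, n = 3) over Fzd1 (19.4 ± 1.06), Dkk2 (7.92 ± 0.107) and Dkk3 (5.57 ± 0.548) to Wnt5a (2.46 ± 0.230), and none of these neighbours overlapped. Wnt7b followed at 1.96 ± 0.549 and overlapped Wnt5a, and Wnt9b (1.10 ± 0.337) and Sfrp2 (1.01 ± 0.134) overlapped each other. Wnt4 (0.638 ± 0.149) and Axin2 (0.375 ± 0.0335) were the lowest, each apart from its neighbours. The gap between Wnt4 and Axin2 rests on the exon union as length. With the gene length of the count table the mild mean of Axin2 was 0.485 CPM per kb. That is above the lowest mild library of Wnt4, at 0.476. The antagonist Sfrp1 was thus the most abundant member per length and the target Axin2 the least. In severe kidneys Sfrp1 (43.2 ± 8.75) and Fzd1 (29.4 ± 7.86) kept the first places without overlap. Wnt4, at 2.39 ± 1.67, held the sixth place, against the ninth in mild kidneys, and overlapped all 5 members from Wnt5a (3.46 ± 0.715) and Wnt7b (2.37 ± 0.704) down to Axin2. In library 13 Wnt4 was still in the ninth place, so the higher rank rests on libraries 14 and 15. Axin2 (0.912 ± 0.488) stayed lowest and overlapped Wnt9b (1.28 ± 0.223) and Sfrp2 (1.30 ± 0.245).

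Per length, Dkk2 and Dkk3 stood in opposite order in the groups. Per kb, the ratio of Dkk2 to Dkk3 was 1.37, 1.32 and 1.60 in mild libraries 7, 8 and 9 and 0.843, 0.911 and 0.978 in severe libraries 13, 14 and 15. In every mild library Dkk2 was the higher of the pair per kb, and in every severe library Dkk3 was. By raw count Dkk2 was still the higher in severe library 14 (1233 against 1227) and in severe library 15 (778 against 721). Only in severe library 13 was it the lower by count (584 against 628). The crossing of 1 therefore rests on the exon lengths, 3705 bases for Dkk2 and 3359 for Dkk3, while the gap between the groups does not. The ratio is taken within a library, so the scaling between libraries does not enter it. The means were 1.43 ± 0.151 and 0.911 ± 0.0676 (SD, n = 3 each). Unlike the fold changes of the single genes, the ratio was not extreme in library 14.

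**Figure D4:**
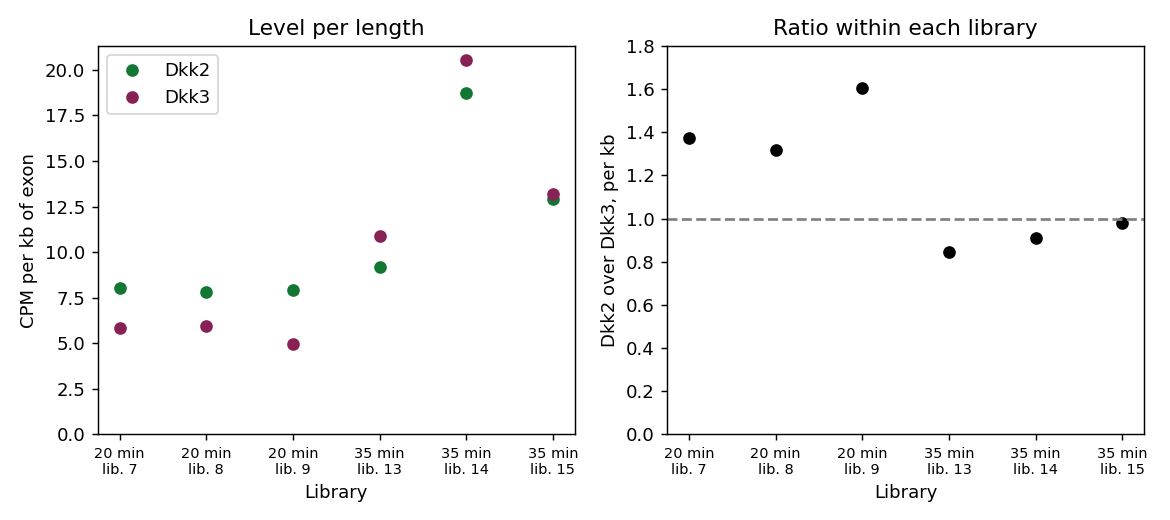
Left, CPM per kb of exon of Dkk2 and Dkk3 in each library. Right, the ratio of the 2 per kb in the same libraries with a dashed line at 1, whose crossing rests on the exon lengths. The ratio lies between 1.32 and 1.60 in the 20 min libraries and between 0.843 and 0.978 in the 35 min libraries.

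That pair was among 12 ratios computed between members of the same role, 6 among ligands and 6 among antagonists. The ratios were chosen after the members' values were seen and carry no test. The groups did not overlap for 4 of the 12, all among antagonists, and 3 of these 4 share Dkk3. Of single genes, 17.9% lay above and 16.1% below without overlap. No such share was computed for ratios of gene pairs, so no conclusion is drawn from the count of 4 in 12. Dkk3 over Sfrp1 stood at 0.159 ± 0.0252 in mild and 0.338 ± 0.0449 in severe libraries. Dkk2 over Sfrp1 stood at 0.226 ± 0.0167 and 0.308 ± 0.0514. Dkk3 over Sfrp2 stood at 4.70 to 6.89 in mild and at 7.45 to 20.2 in severe libraries. The ligand ratios all overlapped, among them Wnt4 over Wnt7b, which stood at 0.184, 0.389 and 0.490 in mild libraries and at 0.421, 1.30 and 1.09 in severe libraries 13, 14 and 15.

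The other genes of the pathway were read from a list of 135 by role, of which 134 matched a row and 108 could be tested. The role lists, like the members, were chosen with earlier results of these data known, so their counts are descriptions only. In edgeR 0 of 108 passed an adjusted p of 0.05. At an unadjusted p under 0.05, 33 of 108 were higher and 5 lower, against 15.8% and 7.89% of all tested genes, and the median log2 fold change was 0.14. DESeq2 gave 18 genes past an adjusted p of 0.05, where 7.19% of its genes passed as higher and 0.993% as lower, and limma-voom gave 0. Without severe library 13 edgeR gave 30, where 21.5% of all genes passed, and without severe library 14 it gave 6, where 3.33% did.

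Few genes of ligand supply had a small p. The 6 other ligands that could be tested included 0 at an unadjusted p under 0.05, where 15.8% of all tested genes were higher and 7.89% lower. Wnt9a stood at a log2 fold change of 0.45 ± 0.22, Wnt10a at 0.94 ± 0.49 and Wnt5b at 0.32 ± 0.20. The genes that make Wnts secretable lay near 0, with the acyltransferase Porcn at 0.07 ± 0.15 and the carrier Wls at -0.0193 ± 0.0928. The Wnt-inactivating enzyme Notum stood lower, with 12.4, 13.6 and 15.2 CPM in mild libraries and 12.1, 5.51 and 8.54 CPM in severe libraries 13, 14 and 15 (log2 fold change -0.66 ± 0.26, edgeR adjusted p = 0.186). Trabd2b, a protease that inactivates Wnts, stood at -0.39 ± 0.18 with overlapping groups. Of 7 other frizzleds, 2 were higher at an unadjusted p under 0.05, against 15.8% of all tested genes. These were Fzd2 at 0.82 ± 0.24 and Fzd6 at 0.25 ± 0.10. Fzd7 stood at 0.16 ± 0.09. Of 9 co-receptors, 4 were higher at that p and 0 lower, against 15.8% and 7.89% of all tested genes. Ptk7, a receptor of the planar polarity branch, had means of 13.5 ± 0.889 CPM (mild) and 31.2 ± 11.4 CPM (severe; edgeR adjusted p = 0.0867). Gpr124 and Reck, which together serve Wnt7 ligands in vessels, stood at 0.60 ± 0.14 and 0.66 ± 0.16. The canonical co-receptors Lrp5 and Lrp6 stood at 0.0439 ± 0.0875 and -0.13 ± 0.08.

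Among 7 other secreted antagonists 2 were higher at an unadjusted p under 0.05, against 15.8% of all tested genes. Serpinf1 stood at 1.59 ± 0.45, and Frzb, an Sfrp relative, at 0.58 ± 0.18 with overlapping groups, while Sfrp4 stood at 0.37 ± 0.35. In the R-spondin arm, which amplifies Wnt signals, 1 of 5 tested genes was higher at an unadjusted p under 0.05, against the same 15.8%. That was Rspo3, with 0.482, 0.538 and 0 CPM in mild and 0.871, 0.955 and 1.35 CPM in severe libraries. Over these libraries 3 counts are worth 0.169 to 0.207 CPM. The counts of Rspo3 were 7, 9 and 0 in mild and 15, 17 and 22 in severe libraries. Only the severe libraries held enough counts of Rspo3 for the test, so it was tested because of the group where it was higher. Its p and the count of 1 of 5 therefore lean on the count filter, and no conclusion is drawn from them. The ubiquitin ligase Znrf3 stood at -0.18 ± 0.11 and the receptor Lgr5 at -0.98 ± 0.70.

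Ctnnb1, which encodes beta-catenin, stood at 553 to 559 CPM in mild and at 530 to 550.2 CPM in severe libraries (log2 fold change -0.0375 ± 0.114). Of the TCF/LEF factor genes, Tcf7l2 stood at 0.0996 ± 0.0928 and Lef1 at -0.00785 ± 0.427. The other members of that family, named after their values were seen, stood at 0.44 ± 0.17 for Tcf7l1 (non-overlapping groups, edgeR adjusted p = 0.177) and 0.87 ± 0.47 for Tcf7 (overlapping groups). Of 15 genes of beta-catenin and its nuclear partners, 4 were higher and 2 lower at an unadjusted p under 0.05, against 15.8% and 7.89% of all tested genes. Among these 15 were the co-activator genes Bcl9 (0.31 ± 0.08) and Pygo1 (1.47 ± 0.47), both higher, and the co-repressor gene Tle3 (-0.23 ± 0.08), which was lower. Of 18 genes of the destruction complex and dishevelled, 2 were higher at that p, against the same 15.8%. These were the kinase gene Csnk1e (0.74 ± 0.19, adjusted p = 0.100 in edgeR) and Frat2 (1.25 ± 0.45, overlapping groups). Dvl2 stood at 0.25 ± 0.11.

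Other genes known as beta-catenin targets had the highest median of the 10 role lists, 1.15 over 15 tested genes. Of these, 10 were higher and 1 lower at an unadjusted p under 0.05, against 15.8% and 7.89% of all tested genes. In 7 of the 15 every severe library lay above every mild one, as in 17.9% of all tested genes. In 1 every severe library lay below, as in 16.1% of all tested genes. Nkd1, a feedback inhibitor like Axin2, stood at 4.20, 5.56 and 3.98 CPM in mild libraries and at 6.22, 19.7 and 12.2 CPM in severe libraries 13, 14 and 15 (log2 fold change 1.47 ± 0.39, edgeR adjusted p = 0.107). That is the order of Axin2, with library 14 highest and library 13 nearest the mild range. It was also the order of the severe libraries in 75.8% of all genes that were higher at an unadjusted p under 0.05. The transcription factor gene Snai1, which is also induced by other signals, TGF-beta among them, stood at 1.28 ± 0.27. Ccnd1, which encodes cyclin D1, was the lower one, with 183 to 216 CPM in mild and 126 to 176 CPM in severe libraries (log2 fold change -0.38 ± 0.14, edgeR adjusted p = 0.166).

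In the planar polarity and calcium branch, which works without beta-catenin, 8 of 22 tested genes were higher and 1 lower at an unadjusted p under 0.05. Of all tested genes 15.8% were higher and 7.89% lower at that p. Vangl2, a core polarity protein, stood at 4.48, 4.25 and 4.04 CPM in mild libraries and at 6.51, 11.2 and 9.52 CPM in severe ones. In edgeR its log2 fold change was 1.09 ± 0.22 with an adjusted p of 0.0867. Here library 13 was also well above the mild range. The formin genes Daam2 and Daam1 stood at 0.59 ± 0.12 and 0.31 ± 0.07, with non-overlapping groups for both.

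**Figure D5:**
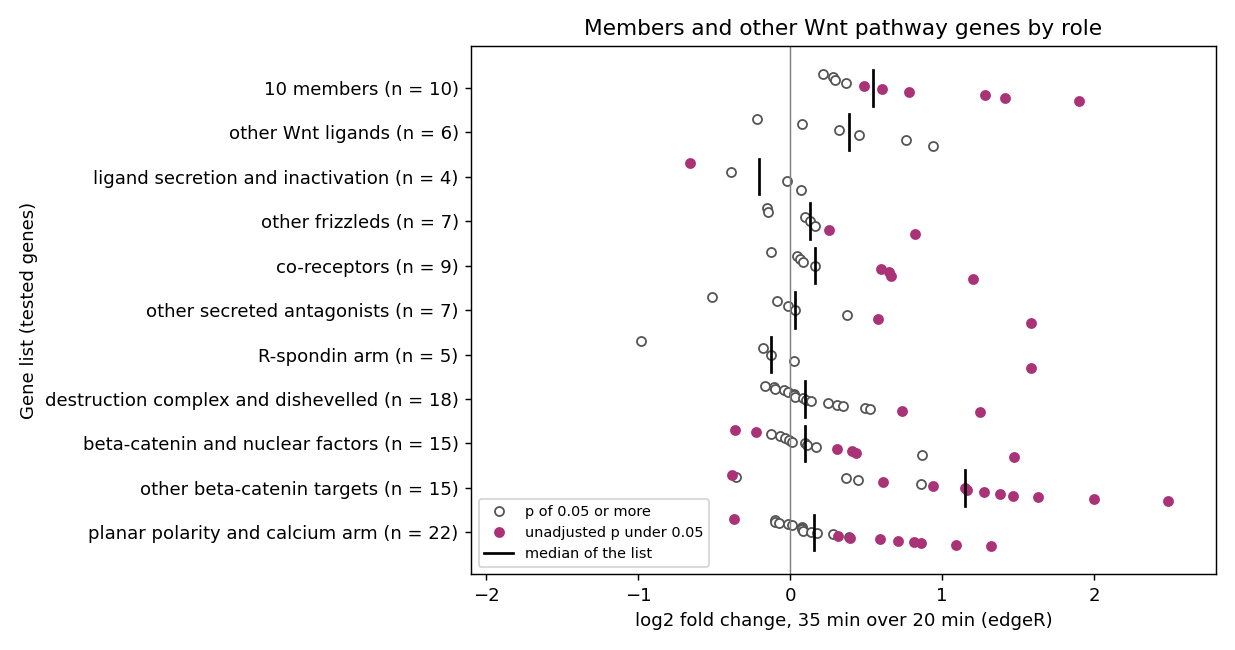
Log2 fold change (35 min over 20 min, edgeR) of the 10 members and of the other tested pathway genes by role, with the list median as a black line. Filled points have an unadjusted p under 0.05. The list of other beta-catenin targets has a median of 1.15, and the other lists of the pathway lie between -0.21 and 0.39.

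Counting could mix reads of a member with those of an overlapping gene, because no source used here gives the strand setting. Genes on the opposite strand overlap Axin2, Wnt5a, Wnt7b and Sfrp2. The one over Wnt7b held 7 to 19 counts per library where Wnt7b held 112 to 277, and the others held at most 3. With library totals in place of TMM the median of all tested genes shifted upward by 0.17 on the log2 scale. Calls at an unadjusted p under 0.05 in edgeR went from 2352 higher and 1175 lower to 3568 higher and 363 lower. The 10 members stayed positive there, but an upward shift favours a positive sign, so no conclusion is drawn from it.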

How the data were processed

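The authors deposited 1 table of unnormalized counts by Ensembl gene. Their build is mm10, and HTSeq 0.6.1, TopHat2 2.0.12 and Bowtie2 2.2.3 are listed, per the submitters' processing notes. How each tool was used, the strand setting and the annotation release: not given in the sources used here. Column names gave each library its minutes of ischaemia. Their numbers match no title, so columns are unpaired replicates. No repeated library was seen: replicate pairs differed by at least 3.67 times the sampling noise (chi-square per degree of freedom).

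After filterByExpr and TMM scaling, severe was tested against mild in edgeR 4.0.16 (R 4.3.3) by quasi-likelihood with robust dispersion, with a threshold of 0.05 on the Benjamini-Hochberg adjusted p over all tested genes. The SE is the log2 fold change over the square root of the F statistic. The pipeline was tested on simulated counts. CPM uses the TMM factors, and a floor of 3 counts covers counting error only. Lengths are unions of exons in GENCODE M21, and promoters are from RefSeq. Members and lists were chosen with earlier results of these data known. Named genes are the members, up to 3 tested genes of each role list with the smallest p, and Porcn, Wls, Lrp5, Lrp6, Ctnnb1, Lef1, Tcf7l2, Ccnd1 and Rspo3. Of the genes this rule names, 1 is not reported here. Adgre1 was matched through its gene ID, and Tiki1 matched no row. Alternatives were RLE and library totals, other filters, DESeq2 1.42.0, limma-voom (limma 3.58.1), non-robust dispersion and each library left out. The gene length in the table was added as a length after seeing the data. Figures were drawn with matplotlib.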

Additional observations from a re-analysis of the deposited data

How the results depend on the processing

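All 10 members kept a positive log2 fold change under the 13 alternatives. No member passed the threshold with RLE or library-total scaling, either filter, limma-voom or non-robust dispersion. With DESeq2 5 members, 18 other pathway genes and 1171 genes in all passed, and with no filter 0 members, 2 other pathway genes and 146 genes passed. With library totals 1 gene passed, and 50 other pathway genes were higher and 2 lower at an unadjusted p under 0.05. Leaving out 1 library at a time gave 0 to 3269 genes, 0 to 6 members and 0 to 30 other pathway genes past the threshold. It gave 1 to 7 other pathway genes lower at an unadjusted p under 0.05, against 5. The highest counts came without severe library 13, and without severe library 14 they were 501 genes, 1 member and 6 other pathway genes. With severe library 15 out 1 gene passed, and with any mild library out 0. The cause was not tested. With the table's gene length or the longest transcript as the length, 2 members, Wnt9b and Sfrp2, changed places in the order of levels over all 6 libraries. The order within a group also depended on the length. With the table's gene length Wnt7b stood at 3.33 CPM per kb in severe kidneys, above Wnt4 at 2.39. The sixth place of Wnt4 in severe kidneys therefore rests on the exon unions. With 2 libraries left in a group, the spread is shared between groups. No paired analysis was possible because the libraries carry no number shared between the groups. Genes that did not reach about 10 counts in at least 3 libraries were not tested, also where 1 library held many.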

Other observations

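Some pathway genes had too few counts for the test, and these were picked after their values were seen. Mmp7, a secreted protease known as a beta-catenin target in kidney tubules, had 1 count in each mild library and 8, 87 and 13 counts in severe libraries 13, 14 and 15. The ratio of the scaled sums, 108 counts against 3, was 32.2 with a 95% exact interval from 10.7 to 158, which covers counting error between these libraries only. Most of those counts came from library 14. The ligand gene Wnt2 had 18 counts summed over mild and 95 summed over severe libraries, of which 74 were in library 14 and 10 and 11 in libraries 13 and 15. Wnt7a had 6 counts in all mild libraries together and 5, 30 and 9 in severe libraries 13, 14 and 15. Rspo1, an R-spondin, had 3, 1 and 1 counts in the mild libraries and 14, 10 and 6 in the severe ones, and here library 13 was the highest. Other untested genes did not have more counts in severe libraries. Wnt8b had 11 counts summed over mild and 10 over severe libraries, Fzd10 had 7 and 7, and Musk had 5 and 3. Of the 26 pathway genes that were not tested, 7 had 0 counts in every library.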
